A study of Arabidopsis thaliana with 4 samples.

Results

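Leaves were compared with siliques, which are seed pods, in the thale cress Arabidopsis thaliana, accession Col-0. Both organs are green, and the question was which transcripts set them apart and which they share. A locus entered the comparison when its value was usable in both organs and its level was at least 1 FPKM in either of them, which took 20442 of the 34288 loci in the authors' table. FPKM counts fragments per length of transcript at a common sequencing depth. It is corrected for transcript length, so levels can also be set beside each other between genes. The leaf sample is described in the labels as the aerial part of plants aged 2 weeks on MS plates. The silique sample came from plants aged 5 weeks in soil. Roots of the plate-grown plants and flowers of the soil-grown plants were sequenced too, 1 library per organ and 4 in all, from wild-type plants kept in long days at 22 °C. Organ, age and medium therefore change together between leaves and siliques and cannot be told apart. Each organ has 1 library, so replicate error is unknown, folds are described and no p-value is given.

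A leaf of a young plant is built for photosynthesis, takes up and reduces nitrate, and defends itself with stored glucosinolates, which myrosinases turn into toxic products after damage. A silique has green walls that also photosynthesise, and it encloses ovules and seeds. In a seed the embryo is fed through the endosperm and wrapped in a seed coat, whose inner layer makes the brown tannins that give transparent testa mutants their name. The carpel wall later forms a lignified zone along which the pod opens.

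Differences are given as the log2 ratio of (leaves FPKM + 1) to (siliques FPKM + 1), positive where leaves were higher, and this scale understates folds of weakly expressed genes. Of the compared loci, 14503 (70.9%) lay within 2-fold of each other. At least 2-fold higher were 1976 loci (9.67%) in leaves and 3963 (19.4%) in siliques, the shares against which counts within gene lists are read. At 4-fold the counts were 652 (3.19%) in leaves and 1661 (8.13%) in siliques, so more loci stood on the silique side at both folds. Across compared loci Spearman's rho was 0.743, a description over genes that are not independent. The median log2 ratio was -0.17, with quartiles at -0.75 and 0.32, and this median is the level against which gene groups are read here. Levels of at least 1 FPKM were reached in both organs by 16985 loci, in leaves only by 910 and in siliques only by 2547. Among the 1661 loci on the silique side, 453 were listed at 0 in leaves, while 14 of the 652 loci on the leaf side were listed at 0 in siliques.

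**Figure D1:**
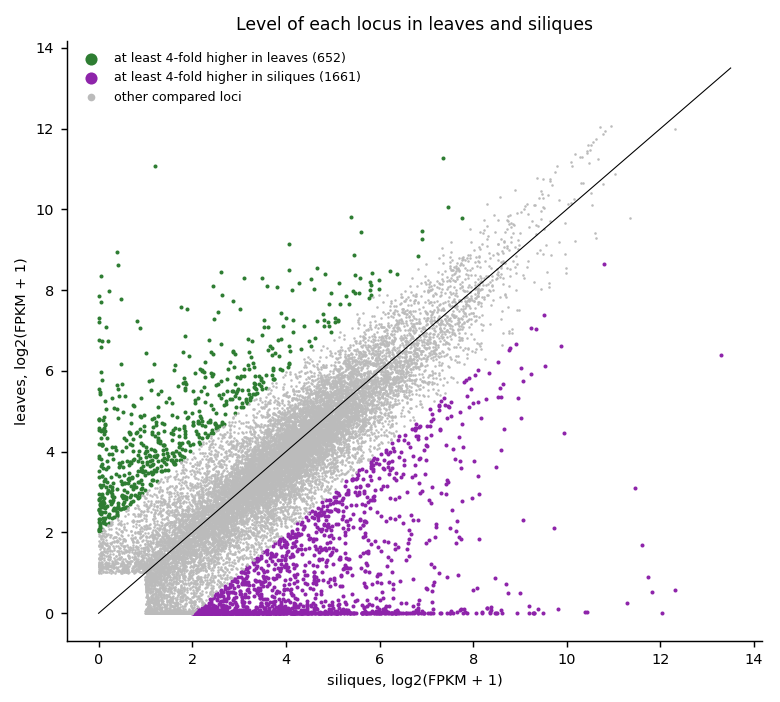
Level of every compared locus in leaves (vertical axis) and siliques (horizontal axis), both as log2(FPKM + 1), 1 point per locus, with the line of equality. The 1661 loci at least 4-fold higher in siliques form a band along the bottom, where leaf levels are near 0, that is denser than the band of 652 leaf loci on the left.

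The authors' intervals are wide: at levels of at least 10 FPKM, the lower end was 0 for 76.2% of loci in leaves and 77.2% in siliques. At least 4-fold apart and with intervals that do not overlap were 32 loci (0.157%) in leaves and 100 (0.489%) in siliques. A further 27 loci had no value because the authors' status marks them as having too many fragments, 16 in leaves and 13 in siliques. Of the 13 in siliques, 11 are neighbouring loci from AT4G12870 to AT4G12960, of which 5 were listed at 0 in leaves. The leaf ones likewise include ATSMC2 and ATM2, at 2.62 and 8.52 FPKM in siliques, which lie next to LHCA4 and LHCB3 by gene code. Among the others were antenna genes such as CAB1, CAB2, LHCB3 and LHCA4, and RBCS1A and RCA of carbon fixation. The minimum of 1 FPKM was just met by LCR29, which was listed at 0 in leaves and had 1.00032 FPKM in siliques, and just missed by AT4G10650, at 0.999919 FPKM in leaves and 0.759 in siliques. Genome intervals are shared with another locus by 4925 of the compared loci, and the library kit does not mark strand, so reads of overlapping genes cannot be told apart there.

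Markers of other tissues were read for both samples. Of 24 pollen and tapetum genes, 7 were compared and 15 were under the minimum in both organs. The compared ones summed to 1.4996 FPKM in leaves and 65.1 in siliques, against 0.476 in roots and 1335 in flowers. The pollen pectin methylesterase VGD1 was listed at 0 in leaves and had 24.9 FPKM in siliques, 0.0163 in roots and 343 in flowers. Pollen transcripts in the silique library were thus present at a small part of their flower level, and their part in the results was not tested. Of 28 root-cell genes, 3 were compared and 23 were under the minimum in both organs. Their sum of 0.774 FPKM in leaves and 433 in siliques rests on the peroxidase PER64, at 0.409 FPKM in leaves, 429 in siliques, 72.7 in roots and 1.22 in flowers. Of 13 shoot meristem genes, 6 were compared, with 2 at least 2-fold higher in leaves and 1 in siliques. CLV1, a receptor kinase that limits the meristem, had 31.2 FPKM in leaves and 13.4 in siliques, while STM, which keeps meristem cells undifferentiated, had 2.31 in leaves and 10.7 in siliques. In bulk tissue, fewer cells of a type and less RNA per cell cannot be told apart.

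The largest ratio toward leaves belonged to GRP3S, a glycine-rich protein gene at chr2:1966816-1968037 (TAIR10), with 2146 FPKM in leaves, 1.32 in siliques, 97.6 in roots and 21.9 in flowers (log2 ratio 9.86). AT3G05730, which encodes a defensin-like protein, had 496 FPKM in leaves and 0.307 in siliques, and it was at 0.110 in roots and 0.219 in flowers. Its neighbour AT3G05727, named as a pollen coat binding protein family member, had 393 FPKM in leaves and 0.331 in siliques. It was at 0.0365 in roots and 0.0748 in flowers, so both neighbours were high in the leaf library and under 1 FPKM in the others. The thionin gene AT1G66100, of a family of small antimicrobial proteins, had 251 FPKM in leaves and 0.162 in siliques (7.76). PYK10, a beta-glucosidase of endoplasmic reticulum bodies, had 208 FPKM in leaves, 0.0347 in siliques and 0.479 in flowers, and its root value is unusable. IGMT4, an O-methyltransferase of indole glucosinolates, had 220.1 FPKM in leaves, 0.392 in siliques, 53.6 in roots and 0.268 in flowers. RAV2, a repressor of flowering also called TEM2, had 134 FPKM in leaves, 0.109 in siliques, 34.9 in roots and 0.306 in flowers. IGMT4 and RAV2 were high in both organs of the young plants and low in both organs of the older ones.

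Of the 12 largest leaf ratios, 4 came from 1 stretch of chromosome 4. AT4G22485, AT4G22513 and AT4G22517 belong to the lipid-transfer and albumin superfamily, and AT4G22510 lies among them. AT4G22517 had 327 FPKM in leaves and 0.0420 in siliques, and AT4G22513 had 229 in leaves and was listed at 0 in siliques. They lie in a run of 8 neighbouring protein-coding genes, each at least 4-fold higher in leaves (chr4:11840134-11866364, log2 ratios 2.69 to 8.30). Several of these loci share genome intervals, so their separate values are uncertain.

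Toward siliques the extremes were larger. AT1G56100, of the invertase and pectin methylesterase inhibitor superfamily, was listed at 0 in leaves and roots and had 4175 FPKM in siliques and 18.1 in flowers. AT4G15750, of the same superfamily, had 0.429 FPKM in leaves, 3604 in siliques, 0.00775 in roots and 21.8 in flowers (log2 ratio -11.30). Both were thus far higher in siliques than in any other library. The lipid transfer protein gene LTP4 had 0.493 FPKM in leaves, 5104 in siliques, 0.207 in roots and 491 in flowers (-11.74). VSP1, a vegetative storage protein gene induced by jasmonate, had 0.854 FPKM in leaves, 3428 in siliques, 6.76 in roots and 2834 in flowers (-10.85). THI2.1, a thionin gene, had 0.0213 FPKM in leaves, 1333 in siliques and 775 in flowers, and was listed at 0 in roots. VSP1 and THI2.1 were thus high in both reproductive organs. BAM5, a beta-amylase gene, had 0.0705 FPKM in leaves, 898 in siliques, 0.00261 in roots and 168 in flowers (-9.71). AT2G30810, of the gibberellin-regulated family, was listed at 0 in leaves and roots and had 715 FPKM in siliques and 0.855 in flowers. AT2G38900, a potato type serine protease inhibitor gene, was listed at 0 in leaves and had 628 FPKM in siliques, 0.0293 in roots and 2.33 in flowers.

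**Figure D2:**
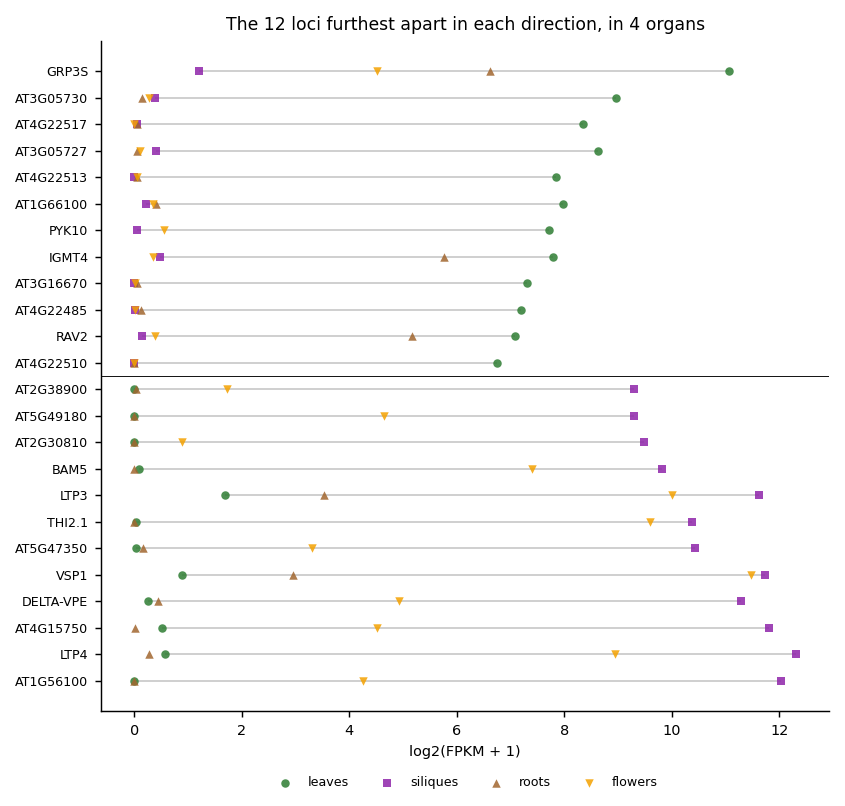
The 12 loci with the largest ratios toward leaves (above the line) and the 12 toward siliques (below it), each as log2(FPKM + 1) in leaves, siliques, roots and flowers, 1 library each. The grey bar joins leaves and siliques, and PYK10 has no root point because its root value is unusable. Leaf levels reach 2146 FPKM in GRP3S, and silique levels reach 5104 FPKM in LTP4.

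Loci with intervals that do not overlap give the firmest single differences in these data. PBP1, a lectin that binds PYK10, had 190.2 FPKM (interval 79.2 to 301) in leaves and 2.40 (0 to 6.60) in siliques. BT2, a nitrate-responsive BTB and TAZ domain protein, had 273 FPKM (115 to 430.4) in leaves and 4.47 (0.390 to 8.54) in siliques. HBI1, a bHLH factor that promotes growth, had 116 FPKM (33.8 to 198) in leaves and 2.58 (0 to 8.08) in siliques. The extensin gene EXT4 and the dark-induced gene SEN1 also had separate intervals, with 183 and 317 FPKM in leaves against 2.71 and 7.56 in siliques. On the silique side, LDOX, which makes anthocyanidins, had 0.829 FPKM (0 to 2.45) in leaves and 355 (104 to 607) in siliques. AT5G09370, of the lipid-transfer superfamily, was listed at 0 in leaves and had 618 FPKM (35.5 to 1201) in siliques. The defensin-like gene AT2G21465 was listed at 0 in leaves and had 181 FPKM (1.11 to 360.1) in siliques.

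Photosynthesis genes with a value in both libraries were high in both organs and moderately higher in leaves. Of 42 photosystem and antenna genes, 31 were compared. The other 11 had no usable value in leaves, where they were marked as having too many fragments. Only CAB1 of these had none in siliques either, and the rest had from 646 FPKM there in LHB1B1 to 3945 in CAB2. The count and median below leave these genes out. At least 2-fold higher were 16 of 31 in leaves and 1 in siliques, and the list's median ratio was 1.01. PSBR, a subunit of photosystem II, had 4193 FPKM in leaves, 1685 in siliques, 57.7 in roots and 1109 in flowers. LHCB6, an antenna protein of photosystem II, had 2640 FPKM in leaves, 1160.1 in siliques, 14.7 in roots and 581 in flowers. For both genes leaves had the highest and roots the lowest of the 4 levels. The single exception was LHCB4.3, an antenna isoform, with 2.58 FPKM in leaves, 97.7 in siliques, 1.57 in roots and 76.2 in flowers (-4.79). Its paralog LHCB4.2 went the other way, at 2136 FPKM in leaves and 887 in siliques.

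Carbon fixation was nearly level among its compared genes, with 1 of 20 at least 2-fold higher in leaves, none in siliques and a median of 0.26. RBCS1A and RCA are not among the 20, because both had too many fragments in leaves. RCA had 2231 FPKM in siliques, and RBCS1A had no usable value there either. RBCS3B, a small subunit of Rubisco, had 4099 FPKM in leaves, 5068 in siliques, 6.72 in roots and 2427 in flowers, though reads may be shared with its near-identical copies. CA2, a carbonic anhydrase, was the gene past 2-fold, with 852 FPKM in leaves and 301 in siliques, while CA1 had 1097 in leaves and 1481 in siliques. All 23 compared genes of the chloroplast NDH complex and electron carriers lay within 2-fold, with a median of 0.69. Photorespiration had 5 of 17 genes at least 2-fold higher in leaves and none in siliques. GGT1, a peroxisomal glutamate-glyoxylate aminotransferase, led it with 1273 FPKM in leaves and 379 in siliques. Chlorophyll synthesis had 9 of 19 higher in leaves and none in siliques, with a median of 0.999. Its leaders were not enzymes alone: GLK1 and GLK2, factors that switch on chloroplast development, had 108 and 152 FPKM in leaves against 13.3 and 33.6 in siliques. PORA, a light-dependent protochlorophyllide reductase, had 51.0 FPKM in leaves, 9.03 in siliques, 0.101 in roots and 3.46 in flowers (2.37).

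The promoter of LHCB6 is shown as an example of the photosystem genes, because it holds a G-box and an I-box, 2 of the 12 motifs searched. The window covers the 250 bases before the annotated start, 5′ to 3′ on the gene's strand, at chr1:5447881-5448130, minus strand (RefSeq, TAIR10.1). Capitals mark a G-box (CACGTG), which begins at -124, and an I-box (GATAAG), which begins at -86.
LHCB6: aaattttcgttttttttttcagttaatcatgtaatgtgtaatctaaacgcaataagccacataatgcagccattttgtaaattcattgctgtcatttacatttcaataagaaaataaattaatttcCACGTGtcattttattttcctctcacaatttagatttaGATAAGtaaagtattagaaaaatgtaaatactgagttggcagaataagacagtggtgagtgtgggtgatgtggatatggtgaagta
Over windows from 250 bases before to 50 after the start, searched on both strands, the G-box was found in 12 of 31 compared photosystem and antenna genes (38.7%), 8.58% of 18681 compared protein-coding loci and 7.68% of 27431 protein-coding promoters. The I-box was found in 15 of the 31 (48.4%), in 14.9% of the compared loci and in 14.7% of all promoters.

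Of 24 compared nitrogen genes, 11 were at least 2-fold higher in leaves and 6 in siliques, with a median of 0.54. The nitrate reductase genes NIA1 and NIA2 had 233 and 561 FPKM in leaves, against 5.19 and 15.8 in siliques (5.24 and 5.07). Roots had 59.9 and 142 FPKM and flowers 13.3 and 15.67, so both genes were high in the young organs and low in the older ones. ASN1, an asparagine synthetase, had 259 FPKM in leaves and 23.3 in siliques. The members furthest toward siliques were UMAMIT14 and AAP8. UMAMIT14, an amino acid exporter of seed-supplying tissue, had 0.709 FPKM in leaves, 72.5 in siliques, 0.672 in roots and 50.7 in flowers (-5.43). AAP8, an amino acid permease, had 0.00459 FPKM in leaves and 4.62 in siliques.

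Of 16 compared iron genes, 11 were at least 2-fold higher in leaves and 2 in siliques, with a median of 1.82. BHLH38, a bHLH factor of the iron-deficiency response, had 20.8 FPKM in leaves, 0.0897 in siliques, 11.7 in roots and 0.0242 in flowers (4.32). Its relative BHLH100 had 22.1 FPKM in leaves and 0.0554 in siliques, and BHLH101 had 23.2 in leaves and was listed at 0 in siliques. NAS1, which makes the metal chelator nicotianamine, had 24.2 FPKM in leaves and 0.102 in siliques. The members furthest toward siliques were the iron-storage ferritin genes FER3 and FER4, with FER3 at 26.7 FPKM in leaves and 99.4 in siliques, and FER4 at 22.9 in leaves and 47.3 in siliques. The G-box, found in 8.58% of compared loci, was found in 7 of 16 promoters of this list (43.8%). That of BHLH38 is shown at chr3:21085246-21085495, minus strand, with the G-box at -97 in capitals.
bHLH38: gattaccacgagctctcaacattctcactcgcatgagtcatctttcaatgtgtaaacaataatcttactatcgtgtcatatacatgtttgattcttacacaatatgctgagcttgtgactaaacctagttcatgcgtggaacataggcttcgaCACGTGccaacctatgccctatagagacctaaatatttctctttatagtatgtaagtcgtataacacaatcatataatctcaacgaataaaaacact

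Phosphate genes were mixed, with 5 of 15 at least 2-fold higher in leaves and 3 in siliques. The noncoding RNA AT4, a decoy for a phosphate-responsive microRNA, had 21.8 FPKM in leaves, 0.953 in siliques, 131 in roots and 2.27 in flowers (3.55). RNS1, a ribonuclease, had 0.132 FPKM in leaves, 105 in siliques, 1.89 in roots and 32.2 in flowers (-6.55).

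Glucosinolate genes had the highest median of all lists, 2.38. Of 31 compared, 22 were at least 2-fold higher in leaves and 4 in siliques. BCAT4, the entry enzyme of methionine chain elongation, had 89.0 FPKM in leaves and 6.30 in siliques. CYP79F1, which makes aldoximes from chain-elongated methionine, had 59.2 FPKM in leaves, 4.40 in siliques, 1.93 in roots and 1.29 in flowers. CYP79B3, its counterpart for tryptophan, had 18.7 FPKM in leaves, 0.494 in siliques, 72.6 in roots and 3.90 in flowers. The joined locus of the chain-elongation synthases MAM1 and MAM3 had 212 FPKM (interval 16.2 to 407) in leaves and 6.28 (0 to 14.7) in siliques. The activating enzymes, named after their values were seen, split: the myrosinase TGG1 had 1944 FPKM in leaves and 864 in siliques, while TGG2 had 401 in leaves and 1763 in siliques. Proteins that steer the breakdown products split as well, with ESM1 at 335 FPKM in leaves and 27.5 in siliques and ESP at 10.12 in leaves and 80.9 in siliques. AOP3, which modifies side chains, had 0.00449 FPKM in leaves and 4.35 in siliques.

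**Figure D3:**
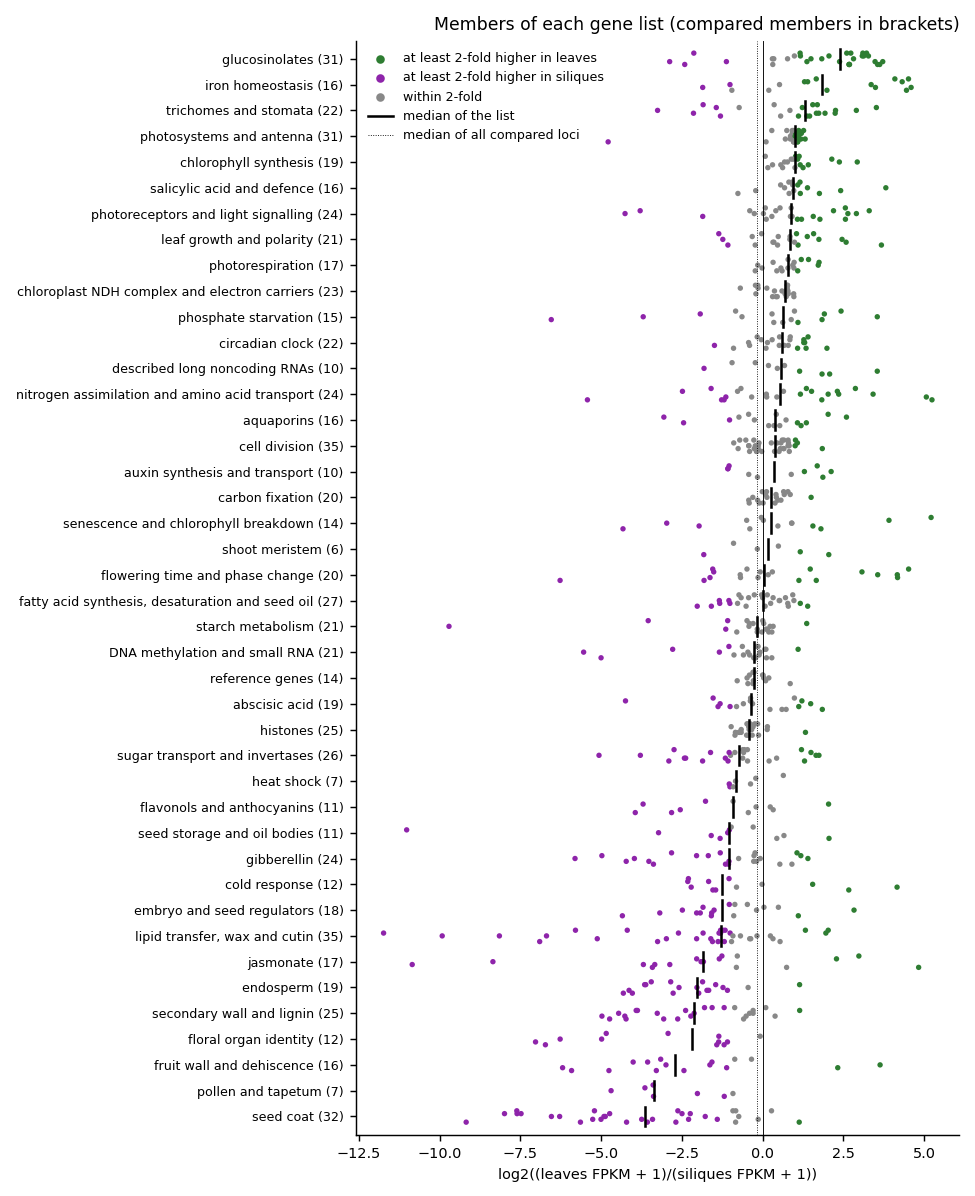
Each point is 1 compared gene of a list, placed by its log2 ratio of (leaves FPKM + 1) to (siliques FPKM + 1), with the list's median as a black bar and the median of all compared loci, -0.17, as a dotted line. Glucosinolates (median 2.38) and iron homeostasis (1.82) stand at the leaf end and seed coat (-3.66) at the silique end, and most lists have members on both sides.

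Genes of leaf form leaned to leaves. Of 21 compared genes of leaf growth and polarity, 8 were at least 2-fold higher in leaves and 3 in siliques. YAB5, a factor of the lower leaf side, had 21.2 FPKM in leaves, 0.733 in siliques, 0.0403 in roots and 5.92 in flowers (3.68). Its relatives YAB3 and FIL, which act in leaves and in pod valves, had 35.7 and 54.2 FPKM in leaves against 1.95 and 10.02 in siliques. PHV and REV, factors of the upper leaf side, were higher in siliques, with 16.1 and 11.3 FPKM in leaves against 42.8 and 27.9 in siliques. Trichome and stomata genes had 13 of 22 higher in leaves and 5 in siliques. TMM, a receptor-like protein that spaces stomata, had 15.2 FPKM in leaves, 0.415 in siliques, 0.193 in roots and 9.001 in flowers (3.52). POLAR, a protein of dividing stomatal precursor cells, had 6.80 FPKM in leaves and 0.0450 in siliques. TRY, a MYB that represses trichomes, had 0.975 FPKM in leaves and 17.9 in siliques (-3.25).

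Light and clock genes leaned the same way. At least 2-fold higher were 10 of 24 light genes in leaves and 3 in siliques. The blue-light receptor PHOT1 had 157.4 FPKM in leaves, 15.1 in siliques, 18.5 in roots and 27.0 in flowers. PIF4, a phytochrome-interacting growth factor, had 90.9 FPKM in leaves and 11.3 in siliques. The early light-induced proteins ELIP1 and ELIP2 were the reverse, with 1.17 and 0.759 FPKM in leaves against 40.6 and 23.4 in siliques. Of 22 clock genes, 7 were at least 2-fold higher in leaves and 1 in siliques, with a median of 0.59. The morning factor CCA1 had 44.0 FPKM in leaves, 16.7 in siliques, 1.48 in roots and 48.1 in flowers. The evening factor TOC1 had 15.3 FPKM in leaves, 20.6 in siliques, 81.7 in roots and 11.3 in flowers. LNK2, PRR7, PRR9, RVE4, RVE8 and CHE were the others past 2-fold in leaves, and BOA was the one in siliques. The labels used here give no harvest hour, so the time of day behind these levels was not analysed here. The evening element (AAAATATCT) was found in the promoter windows of 6 of the 22 clock genes (27.3%) and in 3.24% of compared loci.

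Defence genes of the salicylic acid pathway had 7 of 16 at least 2-fold higher in leaves and none in siliques. WRKY33, a regulator of antimicrobial camalexin, had 50.3 FPKM in leaves, 2.65 in siliques, 86.3 in roots and 7.84 in flowers (3.81). PAD4, a lipase-like defence regulator, had 13.8 FPKM in leaves and 1.78 in siliques. Jasmonate genes leaned the other way, with 3 of 17 higher in leaves and 11 in siliques. VSP2, a vegetative storage protein gene, had 7.61 FPKM in leaves, 2815 in siliques, 2.52 in roots and 824 in flowers (-8.35). LOX2, a lipoxygenase at the head of jasmonate synthesis, had 68.2 FPKM in leaves and 737 in siliques. The allene oxide cyclases AOC2 and AOC1 were higher in leaves, with 40.9 and 15.1 FPKM in leaves against 0.475 and 1.05 in siliques. Senescence genes were mixed, and the protease SAG12, a marker of late senescence, had 0.00852 FPKM in leaves, 19.2 in siliques and 100.2 in flowers.

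The seed coat gave the lowest median of all lists, -3.66, with 1 of 32 compared genes at least 2-fold higher in leaves and 25 in siliques. BAN, an anthocyanidin reductase that commits flavonoids to tannin, had 0.00464 FPKM in leaves, 582 in siliques, 0.0134 in roots and 10.5 in flowers (-9.18). DFR, dihydroflavonol reductase, had 0.640 FPKM in leaves, 417 in siliques, 0.00449 in roots and 4.43 in flowers (-7.99). Chalcone synthase, TT4, had 3.33 FPKM in leaves, 847 in siliques, 26.4 in roots and 340 in flowers (-7.61). BAN and DFR were thus low everywhere but in siliques, while TT4, an early enzyme shared with flavonols, was also high in flowers. The tannin regulators TT2 and TT8 had 0.0110 and 0.143 FPKM in leaves against 28.7 and 29.5 in siliques. Their partner TTG1, a WD40 protein, was level, with 39.3 FPKM in leaves and 32.4 in siliques. STK, a MADS factor of ovules, had 0.0313 FPKM in leaves, 183 in siliques and 46.6 in flowers. Among mucilage genes, MUM4 had 25.4 FPKM in leaves and 49.01 in siliques, and MUM2 had 55.0 in leaves and 24.5 in siliques. Flavonol genes, whose products also occur in leaves, had 1 of 11 higher in leaves and 5 in siliques.

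The G-box was found in 6 of 32 promoter windows of the seed coat list (18.8%), against 8.58% of compared loci. BAN and DFR, the genes of this list furthest toward siliques, are shown. The G-box is in capitals at -108 in BAN (chr1:22792804-22793053, minus strand) and at -14 in DFR (chr5:17166033-17166282, minus strand).
BAN: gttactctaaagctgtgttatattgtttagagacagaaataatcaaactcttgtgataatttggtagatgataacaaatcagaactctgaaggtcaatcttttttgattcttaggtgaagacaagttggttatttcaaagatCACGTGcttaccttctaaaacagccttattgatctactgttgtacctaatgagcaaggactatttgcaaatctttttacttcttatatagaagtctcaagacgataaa
DFR: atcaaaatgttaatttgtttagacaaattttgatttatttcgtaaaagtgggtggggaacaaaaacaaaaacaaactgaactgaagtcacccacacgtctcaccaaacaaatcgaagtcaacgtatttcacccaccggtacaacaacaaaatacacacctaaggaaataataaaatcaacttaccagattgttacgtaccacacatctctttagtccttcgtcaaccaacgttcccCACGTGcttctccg

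Endosperm genes were almost all higher in siliques, 17 of 19, with 1 higher in leaves and a median of -2.04. AGL40, a MADS factor, had 0.0946 FPKM in leaves, 20.8 in siliques, 0.0399 in roots and 0.388 in flowers. CKX2, a cytokinin oxidase that influences seed size, had 0.0443 FPKM in leaves, 17.39 in siliques and 5.67 in flowers. The imprinted genes FWA and PHE1, named after their values were seen, had 0.00469 and 0.217 FPKM in leaves against 11.4 and 12.3 in siliques. IKU2, a receptor kinase of endosperm growth, was the exception, with 1.52 FPKM in leaves and 0.143 in siliques. Embryo and seed regulators had 2 of 18 higher in leaves and 10 in siliques. LEC1, a master regulator of embryo development, had 0.00627 FPKM in leaves and 19.4 in siliques, was listed at 0 in roots and had 0.02497 in flowers (-4.34). DOG1, a gene of seed dormancy, had 6.42 FPKM in leaves and 0.0454 in siliques (2.83).

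Seed storage genes were low in this silique library. Of 27 seed storage and oil body genes, 16 were under 1 FPKM in both organs, among them all 2S albumin and cruciferin genes of the list. The oleosin gene OLEO1 had 0.0994 FPKM in leaves and 1.74 in siliques, and OLEO3 had 0.184 in leaves and 10.07 in siliques. DELTA-VPE, a vacuolar processing protease of the seed coat's inner layers, had 0.197 FPKM in leaves, 2492 in siliques, 0.363 in roots and 29.6 in flowers (-11.02). Fatty acid genes had 2 of 27 at least 2-fold higher in leaves and 6 in siliques, near the 9.67% and 19.4% of all compared loci. WRI1, a seed regulator of fatty acid genes, had 4.49 FPKM in leaves and 15.5 in siliques. The promoter of DELTA-VPE is shown because this gene has the largest silique ratio of its list, at chr3:7052097-7052346, plus strand. The capitals mark the RY core (CATGCA) at -54, a motif whose letters are part of the longer RY repeat (CATGCATG).
DELTA-VPE: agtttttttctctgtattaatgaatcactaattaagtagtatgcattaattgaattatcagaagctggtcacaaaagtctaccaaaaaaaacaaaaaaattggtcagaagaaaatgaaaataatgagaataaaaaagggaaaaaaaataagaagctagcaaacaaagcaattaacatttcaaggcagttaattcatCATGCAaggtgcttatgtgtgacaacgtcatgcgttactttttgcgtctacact
The RY core was found in 8.60% of compared loci, in 14.3% of the loci at least 4-fold higher in leaves and in 14.2% of those at least 4-fold higher in siliques.

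Most pod wall genes were higher in siliques. Of 16 compared genes of the fruit wall and its opening, 2 were at least 2-fold higher in leaves and 12 in siliques, with a median of -2.72. SHP1 and SHP2, MADS factors that mark the valve margin, had 0.293 and 0.199 FPKM in leaves against 77.2 and 86.9 in siliques. FUL, the valve factor, had 1.04 FPKM in leaves, 54.2 in siliques, 0.0205 in roots and 48.7 in flowers. ALC, a bHLH factor of the separation layer, had 4.28 FPKM in leaves and 84.0 in siliques. The 2 genes on the leaf side were YAB3 and FIL.

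Floral organ genes persisted in siliques at levels close to those of flowers for some members and far below for others. Of 12 compared, none was at least 2-fold higher in leaves and 11 were in siliques. SEP2 had 0.0726 FPKM in leaves, 139.5 in siliques, 0.0115 in roots and 134 in flowers. SEP3 had 4.89 FPKM in leaves, 186 in siliques and 178 in flowers, and was listed at 0 in roots. AP3, a petal and stamen factor, had 0.0350 FPKM in leaves, 79.0 in siliques, 0.118 in roots and 119.8 in flowers. Its partner PI and the sepal and petal factor AP1, named after their values were seen, were low in siliques. PI had 0.517 FPKM in leaves, 2.89 in siliques and 241 in flowers, and AP1 had 0.0539 in leaves, 1.82 in siliques and 77.8 in flowers.

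Genes of flowering time and phase change split evenly around a median of 0.05, with 8 of 20 at least 2-fold higher in leaves and 5 in siliques. SVP, a MADS repressor of flowering, had 69.7 FPKM in leaves, 2.09 in siliques, 27.8 in roots and 8.43 in flowers (4.52). The AP2-like repressors TOE1 and SNZ had 42.2 and 17.3 FPKM in leaves against 1.405 and 0.0120 in siliques. SOC1, a promoter of flowering, was also on the leaf side, with 61.1 FPKM in leaves, 4.26 in siliques, 12.9 in roots and 34.4 in flowers. FT, the mobile flowering signal, had 1.01 FPKM in leaves, 154 in siliques, 0.00600 in roots and 6.80 in flowers (-6.27). SPL3, a factor of the adult phase and a target of miR156, had 10.8 FPKM in leaves, 40.6 in siliques, 0.393 in roots and 67.7 in flowers (-1.82).

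Precursor loci of miR156 and miR157, which keep plants juvenile by acting on SPL transcripts, were on the leaf side. MIR157a had 10.4 FPKM in leaves, 0.0105 in siliques, 19.2 in roots and 0.296 in flowers. MIR157c, MIR156c and MIR156a, named after their values were seen, had 12.3, 8.26 and 4.29 FPKM in leaves against 0.354, 0.424 and 0.311 in siliques. All 4 share a genome interval with another locus, so reads of the neighbour may be counted in them. These are levels of precursor transcripts in total RNA libraries, not of mature microRNAs. Of 31 compared loci of the microRNA class, 5 were at least 4-fold higher in leaves (the background is 3.19%) and none in siliques. These 5 include the 4 precursors above, so the count is not a separate result. The mature sequences annotated in RefSeq (TAIR10.1) at the 4 precursors, all on the minus strand, are shown because they fall into 2 sequences. They lie at chr1:24913276-24913296 (MIR157a), chr3:6244673-6244693 (MIR157c), chr4:15415491-15415510 (MIR156c) and chr2:10676534-10676553 (MIR156a). Capitals mark bases 2 to 8, the seed, which is shifted by 1 base between them.
MIR157a: uUGACAGAagauagagagcac
MIR157c: uUGACAGAagauagagagcac
MIR156c: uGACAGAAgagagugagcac
MIR156a: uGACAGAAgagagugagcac
Of the SPL genes, chosen after their values were seen, 16 were compared, and the transcripts of 11 held a stretch with at most 3 mismatches to the reverse complement of the MIR156c sequence. Among those 11, 2 were at least 2-fold higher in leaves and 3 in siliques, with a median of -0.70. Among the other 5, none was higher in leaves and 1 was in siliques, with a median of -0.43. The best stretch in SPL11 and SPL3 is given with mismatches in capitals.
SPL11: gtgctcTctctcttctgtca
SPL3: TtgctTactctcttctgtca
SPL11 had 3.48 FPKM in leaves, 30.5 in siliques, 4.25 in roots and 37.0 in flowers (-2.82). SPL4 had 7.71 FPKM in leaves and 26.0 in siliques, whereas SPL9 was level at 6.62 in leaves and 7.03 in siliques. The loci past 2-fold in leaves were the SPL13 pair, AT5G50570 and AT5G50670, near-identical copies whose separate values are uncertain. The SPL genes with a match therefore lay on both sides.

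Surface lipids and cell walls leaned to siliques. Of 35 compared genes of lipid transfer, wax and cutin, 3 were at least 2-fold higher in leaves and 23 in siliques. LTP6 had the highest level of any compared locus in siliques, with 82.8 FPKM in leaves, 10042 in siliques, 8.05 in roots and 1725 in flowers. LTP3, which may share reads with its neighbour LTP4, had 2.23 FPKM in leaves and 3139 in siliques. MAH1, which makes the alcohols and ketones of stem wax, had 0.0202 FPKM in leaves, 289 in siliques and 189.8 in flowers, and was listed at 0 in roots (-8.15). LTP5 ran the other way, with 339 FPKM in leaves and 82.2 in siliques. Secondary wall genes had 1 of 25 higher in leaves and 16 in siliques, with a median of -2.12. The secondary wall cellulose synthase CESA4 had 6.81 FPKM in leaves, 171 in siliques, 21.8 in roots and 23.5 in flowers. COBL4, a protein of cellulose deposition, had 2.14 FPKM in leaves and 82.9 in siliques, and the chitinase-like CTL2 had 5.87 in leaves and 215 in siliques.

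Sugar carriers and invertases had 5 of 26 at least 2-fold higher in leaves and 11 in siliques. The sucrose exporter SWEET10 had 0.167 FPKM in leaves, 38.2 in siliques, 0.0103 in roots and 64.6 in flowers. The cell wall invertase cwINV4 had 0.00273 FPKM in leaves and 12.8 in siliques. Of 21 compared starch genes, 1 was at least 2-fold higher in leaves and 4 in siliques, near the 9.67% and 19.4% of all compared loci. The ADP-glucose pyrophosphorylase subunits differed in side: APL1 had 226 FPKM in leaves and 87.4 in siliques, while APL3 had 6.37 FPKM in leaves and 84.98 in siliques. Aquaporins were mixed, with 5 of 16 higher in leaves and 3 in siliques. Of 12 cold-response genes, 3 were at least 2-fold higher in leaves and 7 in siliques. The transcription factor genes CBF1 and CBF2 had 6.71 and 19.2 FPKM in leaves against 0.214 and 0.130 in siliques, while COR413IM1 and the dehydrin gene LTI30 had 34.1 and 4.72 in leaves against 174 and 27.1 in siliques.

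Gibberellin genes had 3 of 24 at least 2-fold higher in leaves and 13 in siliques, with a median of -1.05. The ratios furthest toward siliques were those of GAMT1 and GAMT2, which inactivate gibberellins by methylation. GAMT1 had 0.0163 FPKM in leaves and 56.1 in siliques, was listed at 0 in roots and had 0.527 in flowers (-5.81), and GAMT2 had 0.221 in leaves and 37.5 in siliques. Of the biosynthetic oxidases, GA20OX2 had 1.52 FPKM in leaves and 25.3 in siliques, and GA20OX3 had 0.0176 in leaves and 10.7 in siliques. The DELLA repressors RGL1 and RGL2 had 1.90 and 0.766 FPKM in leaves against 53.3 and 26.7 in siliques. The DELLA protein GAI went the other way, with 28.6 FPKM in leaves and 13.2 in siliques, as did the receptor GID1B, with 3.94 in leaves and 0.873 in siliques. Auxin and abscisic acid genes showed no common side. PIN4, an auxin exporter, had 64.4 FPKM in leaves and 14.05 in siliques, and HAI1, a phosphatase of abscisic acid signalling, had 0.903 in leaves and 35.2 in siliques.

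Of 21 compared genes of DNA methylation and small RNA, 1 was at least 2-fold higher in leaves and 5 in siliques, 3 of them past 4-fold. The list as a whole thus stood near all compared loci, at 9.67% and 19.4% for 2-fold. AGO9, an argonaute of ovules, had 0.175 FPKM in leaves, 53.9 in siliques, 0.0102 in roots and 83.6 in flowers. The argonaute genes AGO5 and AGO3 had 0.0943 and 1.25 FPKM in leaves against 34.1 and 14.5 in siliques. AGO10 ran the other way, with 26.5 FPKM in leaves and 11.9 in siliques. Reference, cell division and histone genes differed little. None of 14 reference genes was past 2-fold in either organ, with a median of -0.28. Of 35 cell division genes, 4 were higher in leaves and none in siliques, led by the cyclin CYCD3;1 with 20.7 FPKM in leaves and 5.02 in siliques. Histone genes had 1 of 25 higher in leaves and none in siliques. Of 14 heat shock genes, 7 were compared and 7 were under the minimum in both organs. None of the compared ones was at least 2-fold higher in leaves and 2 were in siliques, beside 9.67% and 19.4% of all compared loci. Their median was -0.84, and HSP15.7 went the other way, with 2.08 FPKM in leaves and 0.976 in siliques. MBF1C, a heat-responsive coactivator, had 4.94 FPKM in leaves and 11.2 in siliques, and the chaperone HSP101 had 2.11 in leaves and 5.29 in siliques.

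Families read from the product names of the reference annotation were examined after the data were seen. Defensin-like genes, small secreted cysteine-rich proteins of defence and reproduction, were the most one-sided, with 4 of 104 at least 4-fold higher in leaves and 81 (77.9%) in siliques. Examples are LCR38, listed at 0 in leaves and roots, with 289 FPKM in siliques and 3.52 in flowers, and LCR73, with 0.102 FPKM in leaves, 315 in siliques and 1.1001 in flowers, on an interval it shares. The leaf side held AT3G05730 and AT1G13609, the second with 62.4 FPKM in leaves and 0.0289 in siliques. Pectin methylesterases and their inhibitors had 1 of 83 in leaves and 44 (53.0%) in siliques. AGAMOUS-like MADS genes had 3 of 58 in leaves and 23 (39.7%) in siliques, and the 3 were SVP, SOC1 (AGL20) and AGL24. Wall-loosening expansins had none of 23 in leaves and 9 (39.1%) in siliques. EXPA23 had 0.0151 FPKM in leaves, 225 in siliques and 1.13 in flowers, while EXPA1, of the same family, had 206 in leaves and 132 in siliques. Arabinogalactan proteins had none of 46 in leaves and 18 in siliques.

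WRKY factors had 9 of 42 at least 4-fold higher in leaves and 1 in siliques, a count that includes POLAR, which the annotation names as a WRKY family member. AP2 and ethylene response factors had 13 of 60 in leaves and 2 in siliques, a family read largely from a shared domain name that also takes in SNZ. ERF104 had 38.2 FPKM in leaves, 3.19 in siliques, 68.5 in roots and 2.26 in flowers, and WRKY25 had 12.7 in leaves, 0.799 in siliques, 29.9 in roots and 1.14 in flowers. Both were high in the young organs and low in the older ones. Cysteine-rich receptor kinases had 5 of 15 in leaves and none in siliques. CRK21 had 30.8 FPKM in leaves, 0.444 in siliques, 0.0339 in roots and 0.854 in flowers. Cytochrome P450 genes were split, with 20 of 136 in leaves and 24 in siliques, and the lipid-transfer superfamily had 16 of 72 in leaves and 27 in siliques. Ribosomal proteins had none of 315 in leaves and 4 in siliques, and pentatricopeptide repeat proteins had none of 180 in either organ.

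**Figure D4:**
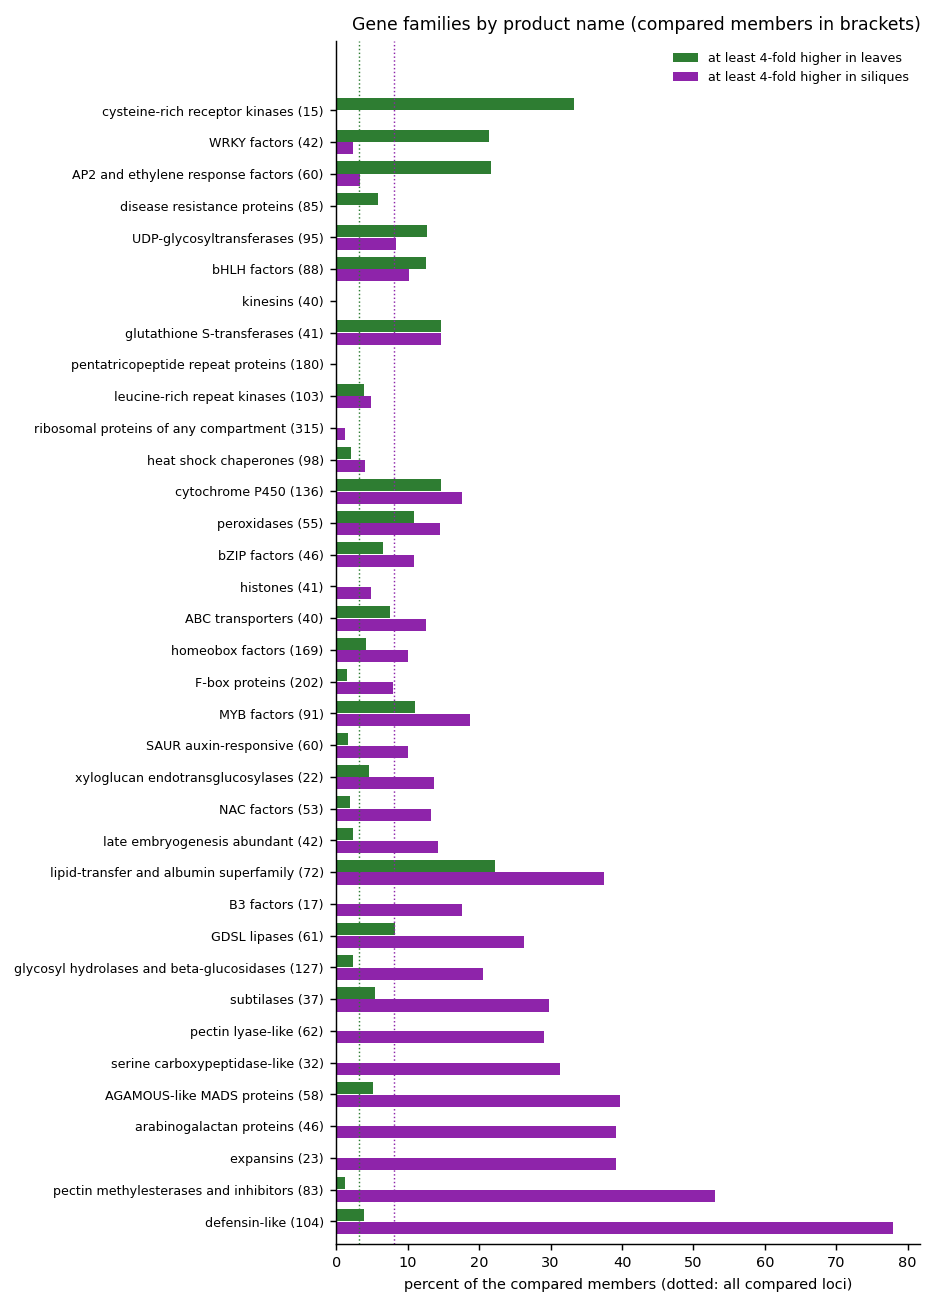
Percent of the compared members of each family at least 4-fold higher in leaves (upper bar) and in siliques (lower bar), with the values of all compared loci, 3.19% and 8.13%, as dotted lines. Defensin-like genes reach 77.9% in siliques, and the longest leaf bar is that of cysteine-rich receptor kinases, at 33.3%.

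Noncoding loci also differed. Toward leaves the largest were AT1G05135, with 64.2 FPKM in leaves, 2.04 in siliques, 13.0 in roots and 4.68 in flowers, and AT2G16367, with 16.3 in leaves and 0.4996 in siliques. Toward siliques they were AT1G12670, with 0.0618 FPKM in leaves and 209 in siliques, AT2G47895, with 0.497 in leaves and 256 in siliques, and AT2G19796, listed at 0 in leaves and at 84.2 in siliques. AT1G05135 and AT2G47895 share genome intervals with other loci.

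The pair of roots and flowers shares no library with leaves and siliques but repeats the contrast of young plants on plates with older plants in soil. It also sets a vegetative against a reproductive organ, as leaves and siliques do. Organ, age and medium therefore cannot be told apart in this pair either. Of 20406 loci usable in all 4 libraries, 12.6% were at least 2-fold higher in roots than in flowers and 21.4% were higher in flowers. Of 651 loci at least 4-fold higher in leaves, 308 (47.3%) were at least 2-fold higher in roots than in flowers, and 148 (22.7%) were higher in flowers. Of 1660 loci at least 4-fold higher in siliques, 155 (9.34%) were higher in roots and 767 (46.2%) in flowers. Both shares in the same direction stood above those of all loci, while the 22.7% in the opposite direction on the leaf side was near the 21.4% of all loci. The level was highest in leaves for 432 of the leaf-side loci, in roots for 192 and in flowers for 27. For the silique-side loci it was highest in siliques for 1241, in flowers for 312 and in roots for 107. Median levels of the silique-side loci were 0.142 FPKM in leaves, 17.1 in siliques, 0.174 in roots and 4.85 in flowers. Those of the leaf-side loci were 21.7 FPKM in leaves, 1.398 in siliques, 9.92 in roots and 3.38 in flowers. The gap between leaves and siliques in both sets follows from how the loci were chosen. The root and flower medians were not part of that choice.

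**Figure D5:**
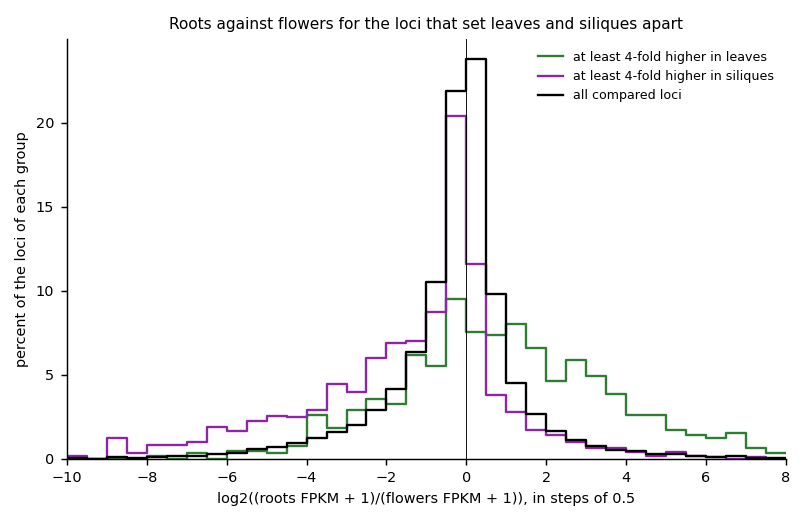
Distribution of the log2 ratio of (roots FPKM + 1) to (flowers FPKM + 1), in steps of 0.5, for loci at least 4-fold higher in leaves, for loci at least 4-fold higher in siliques and for all compared loci, as percent of each group. The leaf-side loci are shifted to the right (median 0.84), the silique-side loci to the left (-0.74), and all loci centre near -0.06.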

How the data were processed

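RNA was treated with DNase, and total RNA of each organ went into TruSeq libraries for Illumina HiSeq sequencing, per the labels. TopHat, Cufflinks and the TAIR10 build are named in the submitters' processing notes, without versions or settings. The authors deposited 1 table whose FPKM values come with lower and upper interval ends and a quantification status, per the file headers. Not given in the sources used here are read totals, the confidence level of the intervals and how libraries were scaled to each other. All 16 per-sample columns were read.

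Values without an OK status were left out. Ratios used a pseudocount of 1 FPKM, with FPKM as deposited, and calls are folds with no test. Names, classes and promoters come from RefSeq's TAIR10.1 annotation: of 32103 nuclear loci with 1 gene code found there, 98.4% overlap the position of the same code. Positions are counted from 1. The members and the gene lists were chosen with earlier results of these data known. Of 985 list entries, 814 were compared, 130 were under the minimum, 22 were joined with another gene, 15 had no usable status, 3 had no row and 1 was left out because its symbol belongs to another locus. Named loci are the 12 largest ratios per direction, the 6 largest with separate intervals, the 5 highest per organ, the 3 largest noncoding ones, and per list up to 4 members along its median and 2 against it. Any member of the clock, seed coat and gibberellin lists could be named. TGG1, TGG2, FWA, PHE1, PI, AP1, the SPL and microRNA loci, family members and runs of neighbours were chosen after their values were seen. Python 3.11.15, pandas 2.3.3, numpy 2.4.6, scipy 1.17.1 and matplotlib 3.10.9 were used.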

Additional observations from a re-analysis of the deposited data

How the results depend on the processing

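Alternatives were a pseudocount of 0.1 or 5, no filter, a minimum of 5 FPKM, median-of-ratios scaling, only loci with 1 gene code, and an OK status in all 4 libraries. No paired analysis was possible because each organ has 1 library, and no replicate could be left out. With a pseudocount of 0.1, at least 4-fold higher were 1065 loci in leaves and 2707 in siliques, the median over all loci was -0.19 and the share of 4-fold loci that differ the same way in roots against flowers was 53.8%, against 46.5% as reported. With a pseudocount of 5, 1122 loci were 2-fold and 263 were 4-fold higher in leaves, 2096 and 720 in siliques, the median was -0.11 and the share was 41.1%. Without a filter the median was -0.0023 and Spearman's rho was 0.881, and with a minimum of 5 FPKM they were -0.15 and 0.652. Median-of-ratios scaling moved ratios toward leaves by at most about 0.12, less at low levels because the pseudocount was added after scaling, and the median to -0.070. The median of the flowering time list became -0.10 and that of the root cell list 0.025 without a filter, and that of the fatty acid list became 0.11 with scaling. Without a filter, 4 members under the minimum enter the flowering time list and 23 enter the root cell list. The reported fatty acid median was -0.0027, so the shift from scaling was enough to change its sign. Every other count over all loci stayed within 1.5 times. Recomputed list medians stayed within the rank-based 95% interval of the reported median in 284 cases, left it in 14 and changed sign in the 3 given above. None of the loci named by rank that were at least 2-fold apart changed sides, but these settings could not have made them. A pseudocount or filter leaves the side of a ratio as it is, and the scaling moved ratios too little. Loci named in other ways were not covered. With 1 library per organ the wide intervals limit every single locus, and values under 1 FPKM only show that a gene was low.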

Other observations

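Some neighbouring genes shared a side. Runs of at least 3 neighbouring protein-coding loci, each at least 4-fold apart in the same direction, numbered 6 on the leaf side with 28 loci and 33 on the silique side with 113. In all, 614 protein-coding loci were at least 4-fold higher in leaves and 1568 in siliques. The silique run that ends with CER1 counts AT1G02190 as separate loci. How many runs would arise without any grouping was not tested. The longest silique run held 6 genes of the ECA1-like gametogenesis related family, AT3G01322 to AT3G01329 (chr3:114290-121534). Leaf runs included 5 thioredoxin superfamily genes from AT4G15660 to AT4G15700 and the lipid-transfer genes AZI1 and EARLI1 with their neighbours. Many of these neighbours are members of 1 family, and how reads of similar copies were assigned is not given in the sources used here.

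Some of the short promoter motifs searched differed in share between loci at least 4-fold apart and all compared loci, while others differed little. Among those that differed little, the G-box was found in 9.17% of leaf-side and 7.28% of silique-side windows, against 8.58% of compared loci. The site II element (TGGGCC) was found in 30 of 600 windows of loci at least 4-fold higher in leaves and in 83 of 1539 of those at least 4-fold higher in siliques (5.39%), against 18.5% of compared loci. The TATA box (TATAAA) was found in 58.3% of the leaf windows and 62.3% of the silique windows, against 52.3% of compared loci. The GCC box (GCCGCC) was found in 2.17% of the leaf windows and 0.455% of the silique windows, against 2.46%. The mitosis-specific activator core (AACGG) was found in 18 of 35 cell division genes (51.4%), a list that barely differed between leaves and siliques, against 25.6% of compared loci. Among compared loci, 753 were listed at 0 in leaves, 28 in siliques, 779 in roots and 191 in flowers.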
